A study of Mus musculus with 8 samples.

Results

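The 10 circadian clock genes Clock, Arntl, Per1, Per2, Per3, Cry1, Cry2, Nr1d1, Nr1d2 and Dbp were examined for ATAC-seq peak summits in brown adipose tissue (BAT). They are 10 of 21000 genes that have a curated RefSeq mRNA. A peak summit was assigned to a clock gene when it fell inside the gene or no farther than 50 kb from a transcription start site (TSS) of one of its curated mRNAs. This rule took 111 of the 32173 summits in the deposited list, and no summit was taken by more than 1 of the genes.

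ATAC-seq reads chromatin accessibility through the Tn5 transposase, which cuts and tags DNA where nucleosomes leave it free. Nuclei came from the BAT of 2 WT mice and 2 Dot1L-BKO mice, all 12 weeks of age, fed chow and held at 4 °C for 4 hours, and each mouse was processed on its own. The study used male mice unless it stated otherwise. The floxed allele was Dot1ltm1a(KOMP)Wtsi after FLP recombination, through a cross with FLPe mice, and the Cre line was B6.FVB-Tg(Ucp1-cre)1Evdr/J. The WT mice were littermates carrying floxed Dot1l without Cre, and the Dot1L-BKO mice carried the same floxed Dot1l together with Ucp1-Cre, so the gene is removed only in cells that express Ucp1 and other cells of the tissue keep it. All of the mice were exposed to cold, and the time of day of tissue collection was not given in the sources used here. The list holds 1 score for each summit, the −log10 of its MACS2 q-value, and no value for any mouse. There are accordingly no replicate errors, the depth is unknown, and the genotypes could not be compared. The name of the list sets both WT libraries against both Dot1L-BKO libraries, but whether the latter were the MACS2 control is not known here. If they were, a score would measure the excess of WT over Dot1L-BKO signal at a site and not how open it was, and this holds for every score and share given here. In either case an absent summit cannot be read as closed chromatin. A score is the strength of evidence for a peak, not a level of transcription.

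The mammalian clock is a feedback loop of transcription. CLOCK and BMAL1, the product of Arntl, bind E-boxes as a pair and activate the Per and Cry genes, whose proteins then enter the nucleus and inhibit the pair. A second loop runs through the nuclear receptors REV-ERBα and REV-ERBβ, encoded by Nr1d1 and Nr1d2, which repress Arntl at ROR elements. DBP is an output of the loop that activates genes through D-boxes. In BAT the clock is known for daily rhythms of heat production and lipid use, and REV-ERBα is known as a repressor of Ucp1.

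The promoters of 9 of the 10 clock genes, 90.0%, held a summit within 1 kb of a curated TSS, whereas 45.2% of all genes did. The exception was Nr1d1. A promoter summit with a score of at least 10 was found at 8 clock genes, 80.0%, beside 23.5% of all genes, and one with a score of at least 20 at 6 clock genes, 60.0%, beside 11.9% of all genes. The highest promoter scores of the 9 genes ran from 4.61 at Per3 to 65.8 at Nr1d2, with a median of 26.1. Over the 9485 genes with a promoter summit the median was 10.7, with quartiles of 5.55 and 20.9. Of the 9 clock genes, 7 lay above that median, 6 of them above the upper quartile, while Clock and Per3 lay below the median. The highest promoter summit was upstream of the TSS in 8 of the 9 genes and within 300 bp of it in 8. Of all genes with a promoter summit, 57.4% had the highest one upstream and 76.1% within 300 bp. Among the clock genes Per3 was the exception to the first count and Dbp to the second.

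**Figure D1:**
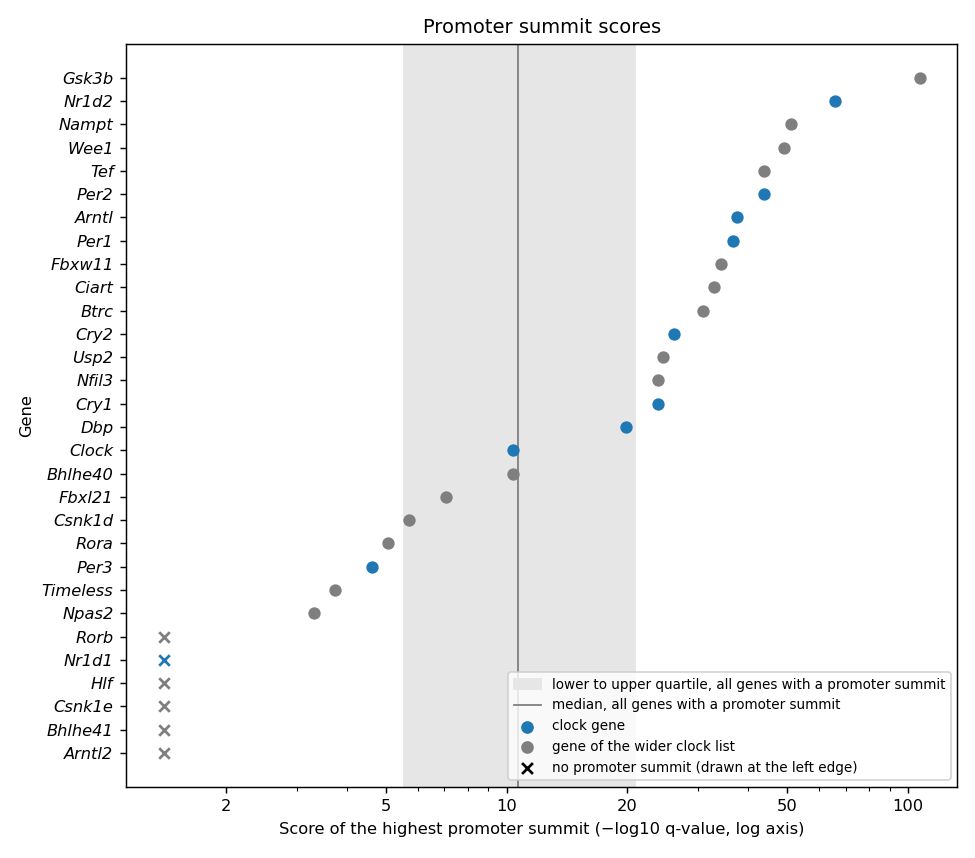
Score of the highest promoter summit (−log10 q-value, log axis) for the 10 clock genes (blue) and the 20 genes of a wider clock list (grey), with the median and quartiles of the 9485 genes that have a promoter summit. Nr1d2 leads the blue points at 65.8, 6 blue points lie right of the shaded band, and crosses mark the genes without a promoter summit, Nr1d1 among them.

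The number of summits around the promoters varied widely from gene to gene. Each of the 10 had at least 1 summit by the rule, as did 72.5% of all genes. The number ran from 1 at Cry1 to 27 at Per1, with a median of 11 beside 2.00 over all genes, and 7 clock genes were above the latter. A summit inside the gene body and more than 1 kb from the gene's TSSs was found at 7 clock genes, beside 24.6% of all genes. Clock, Cry1 and Nr1d2 had none. The windows also take in neighbours, and only 45 of the 111 summits, 40.5%, had a clock gene's TSS as the nearest one. Counted that way, the median was 4.00 summits per clock gene and 1.00 over all genes.

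**Figure D2:**
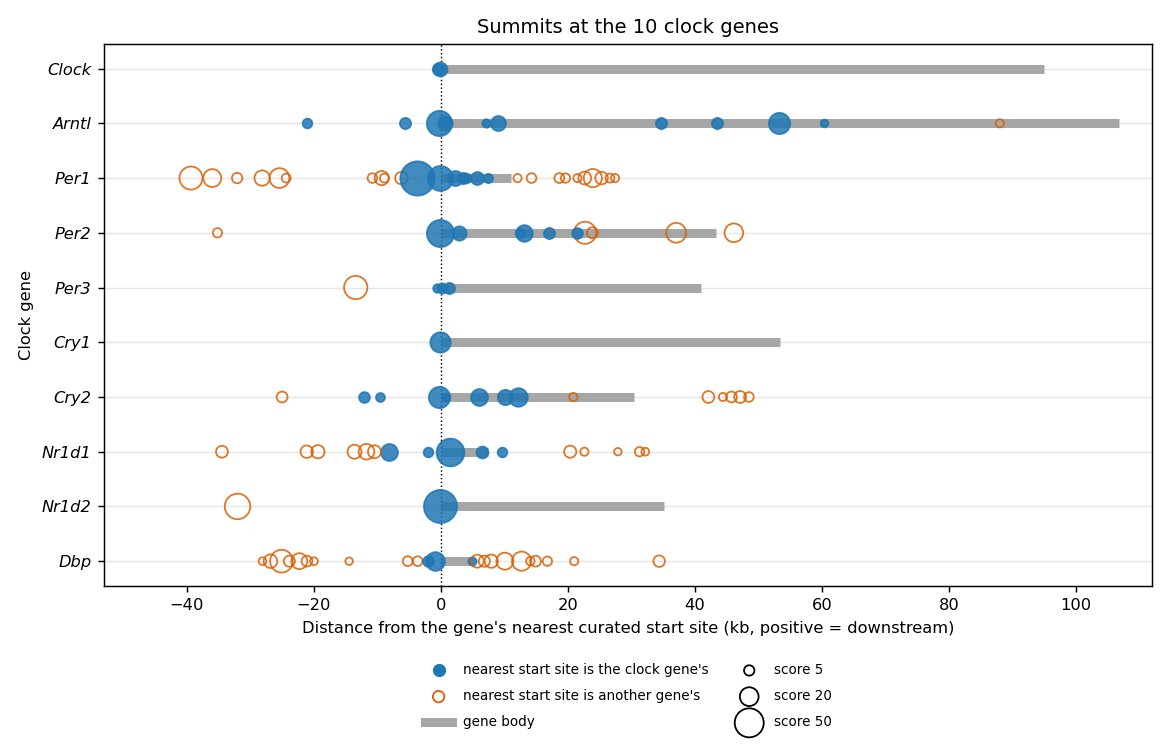
Summits at the 10 clock genes by distance (kb) from the nearest curated TSS of the gene, with the area of a point growing with its score and grey bars for gene bodies. Filled blue points are nearest the clock gene's own TSS and open orange points are nearest another gene's, so that Arntl, with 10 of 11 blue, stands beside Dbp, with 3 of 23.

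Of the 111 summits, 13 lay in a promoter of the clock gene itself, with a median score of 19.8 and a range of 2.15 to 65.8. Another 28 lay deeper in the gene body, with a median of 6.02 and a range of 2.03 to 45.5. The promoters of 18 other genes held 21 summits, with a median of 7.05 and a range of 2.53 to 38.4. The largest class was the 49 summits outside the gene and more than 1 kb from any TSS, which had a median of 5.55 and a range of 1.83 to 70.5. By annotation 6 summits fell in exons of the clock genes, 26 in introns and 79 outside the genes. The median score of the 111 summits was 6.02, beside 5.0 over the whole list. Among summits more than 1 kb from any TSS it was 6.0 over 77 at the clock genes and 4.16 over 21798 in all. A score of at least 20 was reached by 17 of the 111 summits, 15.3%, beside 9.67% of the list.

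**Figure D3:**
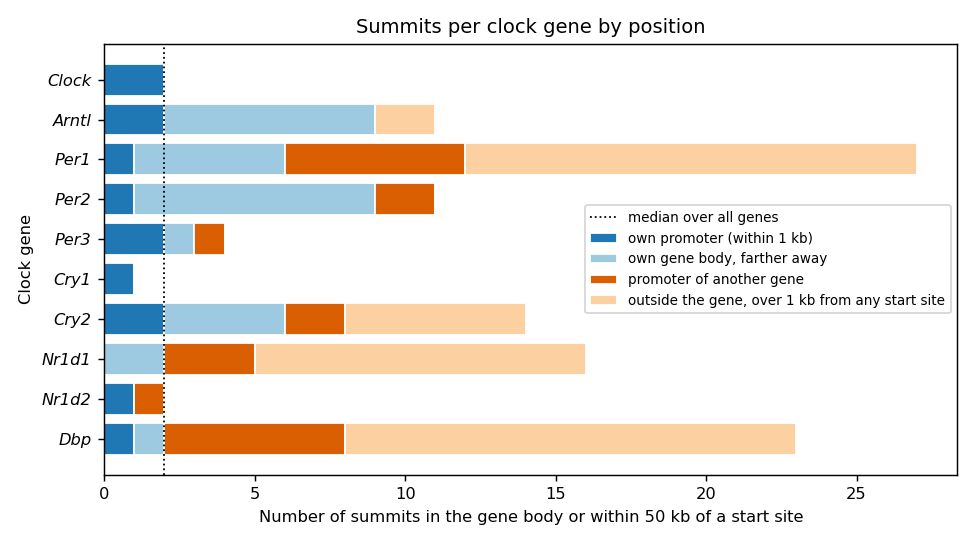
Number of summits assigned to each clock gene, stacked by position, with a dotted line at 2.00, the median over all genes. Per1 (27) and Dbp (23) have the longest bars, and the largest section of each, 15 summits, is outside the gene and over 1 kb from any TSS, while all 8 distal summits of Per2 are inside its own body.

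The activators were Clock and Arntl. Clock, whose protein is the histone acetyltransferase partner of BMAL1, spans chr5:76209868-76304792 on the minus strand and had 2 summits, both in its promoter region. The first, at chr5:76304876, lay 84 bp upstream of a TSS with a score of 10.4, rank 7189 in the list. Of the genes with a promoter summit, 51.8% scored at least as high. The second, at chr5:76304014, was in intron 1 of 22, 512 bp upstream of the most downstream of the gene's 3 TSSs, with a score of 6.53. No summit was listed in the rest of the gene body of 94925 bp.

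Arntl spans chr7:113207465-113314126 on the plus strand, and its summits were spread through the locus. The promoter summit at chr7:113207199, 266 bp upstream of the TSS, scored 37.6, rank 1013, a score that 9.76% of genes with a promoter summit reached. Another promoter summit lay 709 bp downstream in intron 1, with a score of 10.9. The next highest was far inside the gene, in intron 2 at chr7:113260691, 53180 bp into the gene, with a score of 26.1. Intron 1 held further summits at 7109 bp, with a score of 2.69, and at 8930 bp, with a score of 12.2. Intron 2 held 3 more, with scores of 2.03, 6.02 and 6.02. Upstream, summits at 5710 and 21045 bp had scores of 6.02 and 4.16. The gene had 11 summits in all, of which 10 were nearest its own TSS, a number that 1.48% of all genes reached. The exception was a summit in exon 9 of 17, with a score of 2.53. No other gene had a TSS in its window.

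The 201 bp around the strong Arntl promoter summit carried the CCAAT box, the binding site of the general factor NF-Y, 5 times, of which 1 pair overlapped. The window is chr7:113207099-113207299 of mm10, on the gene's strand and ending upstream of the transcribed sequence, and it is shown because it carries the highest summit of the gene, with each CCAAT or its reverse complement in capitals.
Arntl promoter summit: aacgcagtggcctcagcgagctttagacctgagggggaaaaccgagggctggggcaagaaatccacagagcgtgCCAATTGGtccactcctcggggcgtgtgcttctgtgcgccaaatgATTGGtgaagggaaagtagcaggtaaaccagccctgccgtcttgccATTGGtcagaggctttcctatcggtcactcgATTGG

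The Period genes, whose proteins carry PAS domains and hold CRY in the repressing complex, had promoter scores from 4.61 at Per3 to 43.7 at Per2. Per1, the family member known for a fast response to light, cAMP and glucocorticoid signals, spans chr11:69098949-69109960 on the plus strand. The promoter summit at chr11:69098816, 133 bp upstream of the TSS, scored 36.7, rank 1089. This was not its highest. At chr11:69095143, 3806 bp upstream of the first curated TSS, a summit scored 70.5, rank 185, the highest of the 111. A top summit this high or higher was found at 2.48% of all genes. That position is 32 bp downstream of the start of a predicted, not curated, Per1 mRNA at chr11:69095111, so it is a distal summit by curated mRNAs and a promoter summit by predicted ones. Inside the gene there were 5 more, from 3.58 in exon 20 to 12.2 in intron 8. The remaining 20 summits of the window were nearer to another gene.

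Per2, which carries both E'-box and glucocorticoid regulation in other tissues, spans chr1:91415982-91459328 on the minus strand. The summit at chr1:91459446, 118 bp upstream of the TSS, scored 43.7, rank 758, and 7.16% of genes with a promoter summit scored at least as high. Of the 11 summits in its window, 5 were nearer to another gene. Its introns held 8 summits, all more than 1 kb from the curated TSS. The TSS of Hes6 was nearest to the highest of these 8 and to those in introns 10 and 19. The highest was at chr1:91436648 in intron 9, with a score of 28.5. The next, at chr1:91422291 in intron 19 with a score of 22.3, lay in a masked repeat that filled all 201 bases around it. Lower scores were listed in intron 4, 15.4 and 4.16, both within 1 kb of a predicted mRNA start, in intron 1, 10.9, in intron 6, 6.0, in intron 10, 5.87, and again in intron 9, 5.53. Around the intron 6 summit the letters TGACG recurred at offsets of −84, −43, −2, 39 and 80 bp, an even spacing as in a tandem repeat, although no base there was masked.

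Per3, the Period gene that is dispensable for rhythm, spans chr4:151003655-151044665 on the minus strand and had the lowest promoter score of the 9. Its promoter summits lay 226 bp downstream of the TSS in exon 1, at chr4:151044439 with a score of 4.61 and rank 16473, and 564 bp upstream with a score of 2.92. Of the genes with a promoter summit, 82.8% scored at least as high as the first. A summit in intron 2, 1227 bp past the TSS and thus just outside the promoter window, scored 6.02. The highest summit in the window, 31.7, was in the promoter of Vamp3, which encodes a vesicle fusion protein.

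The Cryptochrome genes encode the strongest repressors of CLOCK and BMAL1. Cry1, at chr10:85131700-85185054 on the minus strand, had a single summit, at chr10:85185152, 98 bp upstream of the TSS, with a score of 23.8 and rank 2297. Its body of 53355 bp held no listed summit, and no other gene had a TSS in the window. Cry2, at chr2:92403646-92434069 on the minus strand, had 14, of which 7 were nearer to another gene. Its promoter summit at chr2:92434313, 244 bp upstream, scored 26.1, rank 1969, beside 23.8 at Cry1. A weaker one, 2.15, lay 792 bp downstream. Introns 1, 3 and 5 of Cry2 each held a summit, at 6013, 10051 and 12147 bp from the TSS, with scores of 16.0, 12.8 and 19.4, and intron 8 held a weaker one at 20847 bp, with a score of 2.69. Cry2 thus had 4 summits in its body beyond 1 kb from its curated TSS, where Cry1 had 0. The one in intron 3 was 669 bp from the start of a predicted Cry2 mRNA.

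Per1 and Cry1 were the clock genes whose RefSeq promoter, 250 bp before to 50 bp after a TSS, held the E-box CACGTG, and in both it lay within 100 bp of the promoter summit. In Per1 the E-box began at −166 bp from the TSS and −33 bp from the summit, where negative distances are upstream on the gene's strand. In Cry1 it began at −60 bp from the TSS and 38 bp from the summit, beside an E'-box, CACGTT, in the other orientation at −79 bp from the TSS. The highest Per1 summit also had an E-box, at −76 bp from it. The sequences are on the plus strand for Per1 and the minus strand for Cry1, at chr11:69095043-69095107, chr11:69098771-69098800 and chr10:85185055-85185252 of mm10. They are shown for these sites, with E-boxes and E'-boxes in capitals, and the first and last are cut where an annotated mRNA begins. The window of the Per1 promoter summit lies in an exon of a predicted Per1 mRNA, so only the E-box with the bases beside it, 30 bp in all, is shown.
Per1 highest summit, upstream part: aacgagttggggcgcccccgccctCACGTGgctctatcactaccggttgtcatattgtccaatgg
Per1 promoter summit, E-box site: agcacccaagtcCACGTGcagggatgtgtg
Cry1 promoter summit: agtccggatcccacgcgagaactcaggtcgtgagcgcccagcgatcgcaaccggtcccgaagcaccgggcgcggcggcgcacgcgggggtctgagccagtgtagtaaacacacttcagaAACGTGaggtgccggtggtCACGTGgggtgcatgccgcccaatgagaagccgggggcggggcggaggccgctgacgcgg

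The nuclear receptor genes Nr1d1 and Nr1d2 were unlike each other. Nr1d1, at chr11:98767932-98775377 on the minus strand, had no summit within 1 kb of its TSS. Its highest summit was at chr11:98773984 in intron 1, 1393 bp downstream of the TSS, with a score of 45.5 and rank 689, above the promoter scores of 8 of the other 9 clock genes. Upstream, summits lay 2024 bp away with a score of 4.16 and 8109 bp away with a score of 15.9. A summit in intron 7, with a score of 7.05, is also in the body of Thra, the thyroid hormone receptor gene that overlaps the end of Nr1d1 on the other strand. Of the 16 summits of Nr1d1, 7 lay in the body of Thra and 5 were nearest the Nr1d1 TSS. Nr1d2, at chr14:18204056-18239106 on the minus strand, had the highest promoter score of the 10 genes by curated TSSs, with the Per1 summit at a predicted start left aside. That summit, at chr14:18239182 and 76 bp upstream of the TSS, scored 65.8, rank 241, and 2.18% of genes with a promoter summit scored at least as high. The one other summit in its window, 38.4, was in the promoter of Nkiras1.

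The windows under these summits are shown to compare the receptor pair, on the minus strand at chr11:98773884-98774084 for the Nr1d1 intron and chr14:18239107-18239282 for the Nr1d2 promoter, the latter cut at its TSS. GC boxes, GGGCGG, and in Nr1d2 a CCAAT box are in capitals. The intron window of Nr1d1 held 3 GC boxes and no E-box. The part of the Nr1d2 window shown held 2 GC boxes, at 19 and 43 bp downstream of the summit, and a CCAAT box at −12 bp. Another GC box lay in transcribed sequence.
Nr1d1 intron 1 summit: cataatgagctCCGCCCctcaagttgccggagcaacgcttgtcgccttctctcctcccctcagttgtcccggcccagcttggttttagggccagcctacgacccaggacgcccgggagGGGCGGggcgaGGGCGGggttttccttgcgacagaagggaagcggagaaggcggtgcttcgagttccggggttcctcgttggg
Nr1d2 promoter summit: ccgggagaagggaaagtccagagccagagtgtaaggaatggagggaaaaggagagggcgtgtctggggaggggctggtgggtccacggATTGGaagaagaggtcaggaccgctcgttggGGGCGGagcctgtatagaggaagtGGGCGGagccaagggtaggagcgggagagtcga

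Dbp, the PAR bZIP factor that drives rhythmic output genes, spans chr7:45705247-45710203 on the plus strand. The promoter summit at chr7:45704373 scored 19.8, rank 3127, but lay 874 bp upstream of the TSS and inside the body of Car11, a carbonic anhydrase-related gene. Of genes with a promoter summit, 26.4% scored at least as high. The other summits nearest the Dbp TSS were at 2061 bp upstream, with a score of 5.55, and in exon 4, with a score of 2.54, where Dbp overlaps Sphk2. Dbp lies in a stretch dense with genes, with 9 other genes having a TSS in its window, and 20 of its 23 summits were nearer to one of them. The highest, 30.1, was at −25089 bp from its TSS, in the body of Sec1.

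Promoters of neighbouring genes accounted for 21 of the 111 summits. Near Per1 these were Borcs6, with a score of 30.9, Tmem107, with 12.8, Vamp2, with 4.04, Hes7, with 3.75, and Aloxe3, with 8.11 and 3.32. Near Per2, the promoter of Hes6, a helix-loop-helix cofactor, scored 19.8 and that of Traf3ip1 3.75. Near Cry2, Mapk8ip1 scored 7.05 and Slc35c1 5.55. Near Nr1d1, Msl1 scored 9.21 and 7.91 and Casc3 7.05. Near Dbp, Sphk2, a sphingosine kinase, scored 20.9 and 16.0 at separate TSSs, with Ntn5 at 5.55, Car11 at 4.34, Fam83e at 3.75 and Spaca4 at 2.53. At Per3 and Nr1d2 the neighbour's promoter, that of Vamp3 or Nkiras1, held the only summit that lay in neither the body nor the promoter of the clock gene, whereas at Clock, Arntl and Cry1 no neighbour's promoter contributed.

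In the RefSeq promoters (GRCm38.p6), entries were found for 9 of the clock genes, all but Per2. Their 13 promoter entries had a GC content of 47.0% to 76.7%, and 12 of them exceeded the median of 52.7% over all 32851 entries. Motifs were counted on both strands in the 300 bp of each entry, and a gene counted when any of its entries held one. The shares of all 27025 genes with an entry were counted likewise. A match is a match of letters and not a measured binding site. The E-box CACGTG was in the promoters of 2 of the 9 genes, beside 8.09% of all genes. The E'-box CACGTT was in 3, Cry1, Cry2 and Nr1d1, beside 5.44%. The D-box TTANGTAA was in 1, Per3, where it began at −205 and −158 bp from the TSS, beside 2.72%. The ROR element, searched as its extended consensus, was in 1, Arntl, beside 0.759%. The GC box and the CCAAT box were each in 8 of the 9, beside 38.2% and 41.1%. The cAMP response element TGACGTCA and the glucocorticoid response element were in none, beside 2.03% and 0.537%. The shorter cAMP site TGACG was in 3, Per1, Cry1 and Cry2, beside 23.0%.

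These promoter sites are shown because they are the motifs of the loops themselves, in capitals, from the RefSeq promoter sequences at chr4:151044707-151044915 and chr11:98775378-98775627 on the minus strand and chr7:113207528-113207557 on the plus strand. The Per3 entry is cut where a predicted mRNA begins. The D-boxes of Per3 lie in a promoter whose summits were weak, and the E'-box of Nr1d1, at −28 bp from its TSS, lies in the one promoter with no summit. The ROR element of Arntl begins 27 bp downstream of a TSS, outside the 201 bp around the promoter summit.
Per3 promoter, D-boxes: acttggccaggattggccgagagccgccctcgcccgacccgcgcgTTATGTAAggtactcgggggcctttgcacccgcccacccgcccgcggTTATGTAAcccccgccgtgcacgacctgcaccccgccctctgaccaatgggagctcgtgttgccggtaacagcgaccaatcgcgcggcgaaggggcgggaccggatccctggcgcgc
Nr1d1 promoter, E'-box: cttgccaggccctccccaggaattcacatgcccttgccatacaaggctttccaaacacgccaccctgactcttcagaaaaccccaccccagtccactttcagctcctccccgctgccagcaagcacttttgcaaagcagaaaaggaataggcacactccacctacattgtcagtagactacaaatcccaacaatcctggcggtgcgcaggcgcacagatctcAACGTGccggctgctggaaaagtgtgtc
Arntl site, ROR element: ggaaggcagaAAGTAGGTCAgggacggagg

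The same letters were then sought within 100 bp of 110 of the 111 summits, all but the Per2 promoter summit. An E-box was found at 6 summits, 5.45%, beside 4.68% of all summits of the list, a share near that background. They were the 2 at Per1 and the 1 at Cry1 described above, the Cry2 intron 3 summit, and summits 8109 bp upstream and 27851 bp downstream of the Nr1d1 TSS, with scores of 15.9 and 1.83. An E'-box was found at 4, 3.64%, beside 3.05%. These were the promoter summits of Cry1 and Cry2, the Clock intron 1 summit and the Arntl summit at 8930 bp. The D-box was at 0, beside 0.970%. The ROR element was at 3, 2.73%, beside 0.609%, and these were the Clock intron 1 summit, an Arntl intron 2 summit 43412 bp into the gene that scored 6.02, and the Slc35c1 promoter summit near Cry2. The cAMP response element was at 1, in a Sphk2 promoter, 0.909%, beside 1.03%, and the GC box at 22, beside 20.6% of all summits. The CCAAT box was at 34, 30.9%, beside 24.9%, the shorter cAMP site TGACG at 12, 10.9%, beside 14.8%, and the glucocorticoid response element at 0, beside 0.696%.

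The Clock intron 1 summit was the one window with both an E'-box and a ROR element, and is shown for that reason, on the minus strand at chr5:76303914-76304114, with both in capitals, the ROR element first. The ROR element began at −15 bp from the summit and the E'-box at 15 bp.
Clock intron 1 summit: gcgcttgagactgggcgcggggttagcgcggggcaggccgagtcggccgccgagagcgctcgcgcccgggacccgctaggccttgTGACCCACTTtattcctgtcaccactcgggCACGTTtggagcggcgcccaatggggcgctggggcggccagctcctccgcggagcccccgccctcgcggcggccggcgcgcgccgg

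**Figure D4:**
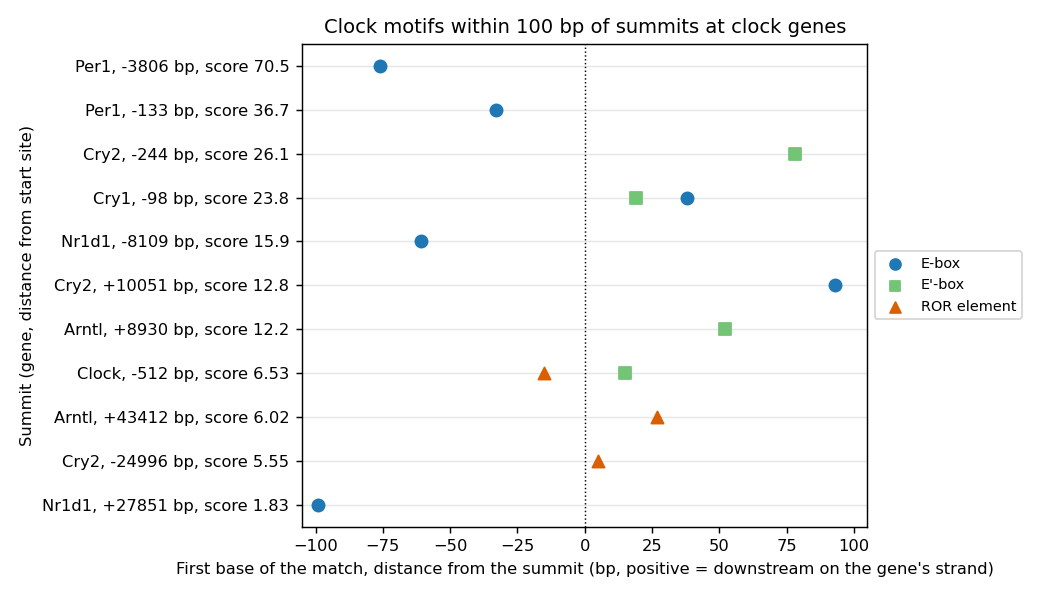
Distance (bp) of E-boxes, E'-boxes and ROR elements from the summit for each summit at the clock genes that holds one, ordered by score, with the gene and the distance of the summit from its TSS at the left. E-boxes mark the 2 highest rows, both Per1, and the ROR elements (triangles) sit at scores of 6.53 and below.

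A wider list of 20 genes around the loop was read in the same way. Of these, 15 had a promoter summit, 75.0%, beside the 45.2% of all genes. A score of at least 10 was reached by 10, beside 23.5% of all genes, and one of at least 20 by 9, beside 11.9%. The median score of the 15 was 24.6, beside 10.7 over all genes with a promoter summit. The kinase and ubiquitin ligase genes that set the stability of the clock proteins were mixed. Gsk3b, a kinase of several clock proteins, had the highest score of the list, 107, with rank 46. The ligase subunits Fbxw11, Btrc and Fbxl21 had 34.2, 30.9 and 7.05, and the deubiquitinase gene Usp2 had 24.6. Among the casein kinases, Csnk1d had 5.72, while Csnk1e had 16 summits in its window and none in the promoter. Of the PAR bZIP family and its repressor, Tef had 43.7 and Nfil3 23.8, but Hlf had 4 summits in its window and none in the promoter. The output genes Nampt and Wee1 had 51.0 and 49.1. Ciart, a repressor of CLOCK and BMAL1, had 32.9 and Bhlhe40 had 10.4. Bhlhe41 had 4 summits in its window and none in the promoter. Timeless had 3.73. The paralogs of the activators had a low promoter score or none, with 3.32 at Npas2, the paralog of Clock. Arntl2 had 1 summit in its window, outside the promoter. Rora and Rorb encode receptors that activate Arntl where REV-ERB represses it. Rora had 5.07, and Rorb had no summit at all in its window.

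Marker genes of several cell types were read in the same way. This is not a check of the tissue label if the Dot1L-BKO libraries were the MACS2 control. A score would then measure the excess of WT over Dot1L-BKO signal. All 8 brown adipocyte markers had a promoter summit, with scores of 6.02 to 61.5, as had 1 of 4 endothelial (Cdh5, 2.59), 1 of 4 macrophage and leukocyte (Cd68, 2.15), 0 of 4 skeletal muscle, 0 of 4 neuronal and 1 of 4 hepatocyte markers (Apoa1, 3.32). The share over all genes was 45.2%, and an absent summit cannot be read as an absent cell type. BAT holds several cell types, and the summits at the clock genes could not be assigned to one of them.

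Some positions depend on where the windows end. Just inside the 50 kb limit lay a Cry2 summit at 48478 bp with a score of 4.16 and the Hes6 promoter summit at 46111 bp from Per2. Just outside lay summits at −50063 bp from Dbp, with a score of 1.87, at 51010 bp from Cry2, with 6.53, and at −52315 bp from Per1, with 5.07. The base of 6 of the 111 summits, 5.41%, lay in a masked repeat, beside 12.9% of the list. These were 2 in the Per1 window, 2 in the Dbp window, 1 in that of Nr1d1 and the Per2 intron 19 summit, the only one of the 6 with a score of at least 20.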

How the data were processed

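The authors trimmed ATAC-seq reads with cutadapt 1.2.1, used BWA within Partek Flow for alignment to mm10, and took peaks from MACS2 2.1.1 in ATAC mode (q-value cutoff 0.05, fold enrichment cutoff 2.0). The deposited list gives a summit position for each peak with the −log10 q-value as its score. Shifting of reads for Tn5 and handling of duplicates were not given in the sources used here. Depth is unknown, so no interval or floor was computed. RNA-seq libraries were not analysed here.

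Summits on chromosomes 1 to 19, X and Y were placed on the RefSeq annotation of GRCm38.p6, the same build, using 25999 TSSs of curated mRNAs. Ranks count higher scores, and ties share a rank. Motif letters were searched on both strands with Python 3.11.15 and numpy 2.4.6, and figures drawn with matplotlib 3.10.9. The search was tested on simulated data. No statistical test was made, because the list holds no values per library. Shares are set beside the same shares over all genes or summits, as a description. The clock genes, the wider list, the markers and the motifs were chosen with earlier results of these data known. Some genes first placed on the wider list are not reported here. The 20 genes counted in it and the 10 clock genes were all named, and other genes only as markers or as neighbours of a named summit. Alternatives changed the score minimum, the windows, the transcripts and the motif.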

Additional observations from a re-analysis of the deposited data

How the results depend on the processing

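No paired analysis was possible because no library has values of its own in the deposited list, and for the same reason no replicate could be left out. Of 30 alternatives, 23 left the count within 1.5 times its main value. The number of clock genes with a promoter summit stayed between 8 and 10. Per3 was lost at a score of at least 5, Dbp with a window of 500 bp, and Nr1d1 was gained with one of 5 kb. In the wider list it was 10 to 17. Of the 111 summits, 71 had scores of 5 or more and 37 had scores of 10 or more, and the number was 56 within 10 kb and 45 when only the nearest TSS counted. Clock genes with an E-box in the promoter went from 2 to 4 when CACGTT counted too. Summits with an E-box went from 6 to 2 within 50 bp and to 13 within 250 bp, with no share over all summits given for those windows. The last 2 changes follow from the motif and the window searched. Unknown depth limits every statement about an absent summit.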
